A study of Mus musculus with 9 samples.

Results

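This account concerns the livers of C57BL/6 mice that were fed a high fat diet and given either B-LGND2 or vehicle for 9 weeks. They are 6 of the 9 libraries sequenced: 3 from B-LGND2 mice and 3 from vehicle mice, all on the high fat diet, chosen by diet and treatment and not by any measured value. The other 3 libraries, from mice on normal diet with vehicle, share the fit and are given as a side value. B-LGND2 is known here only by its code name, and the series title presents the ligands as acting on estrogen receptor beta. Both groups compared ate the same diet, so by the labels they differ in treatment only, and no group received B-LGND2 on normal diet. The sources used here do not give sex, dose, route, diet composition or time of day, and no label names a batch. Each library is labelled as a separate mouse in a group of 3, and the p-values measure only the spread between these samples.

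Liver lobules hold hepatocytes, which make plasma proteins, lipoproteins, bile acids and detoxifying enzymes, beside Kupffer cells, the resident macrophages that line the sinusoids and clear particles and dying cells from the blood. A high fat diet loads hepatocytes with triglyceride and is widely used to study fatty liver. Estrogen receptors are nuclear receptors: the alpha receptor, encoded by Esr1, is the form usually found in hepatocytes, while the beta receptor, encoded by Esr2, is known mainly from ovary, prostate, immune and brain tissue.

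Libraries held between 5778978 counts (B-LGND2 replicate 3) and 10322972 counts (B-LGND2 replicate 1). Levels below are counts per 1000000 counts (CPM) on library sizes scaled by the trimmed mean of M-values, and fold values are ratios of group mean CPM unless a log2 fold change from the fit is named. The libraries differed in more than treatment. Gene models of ribosomal RNA took 6.04%, 6.19% and 4.31% of the counts of the B-LGND2 livers, 1.44%, 1.27% and 0.901% of those of the vehicle livers, and 3.42% ± 0.299 (SD, n = 3) on normal diet, so the high fat groups did not overlap. Counts leaned to long transcripts in the vehicle livers (Spearman correlation of a library's deviation with exon length across genes 0.292 to 0.360) and less so, or the other way, in the B-LGND2 livers (-0.266 to 0.0605). B-LGND2 replicate 1 also leaned to GC-rich genes, with a correlation of 0.507 against 0.0825 and 0.0458 in its group. Across coding genes the log2 fold change of B-LGND2 over vehicle had a Spearman correlation of -0.29 with length and 0.26 with GC content. The part of these differences in the results below was tested only by settings. With offsets for length and GC content 433 genes were called higher and 418 lower, and these held 560 of the 681 genes called without offsets. With the share of ribosomal RNA as a term in the model 2 and 0 were called, and this setting separates the share poorly from treatment.

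**Figure D1:**
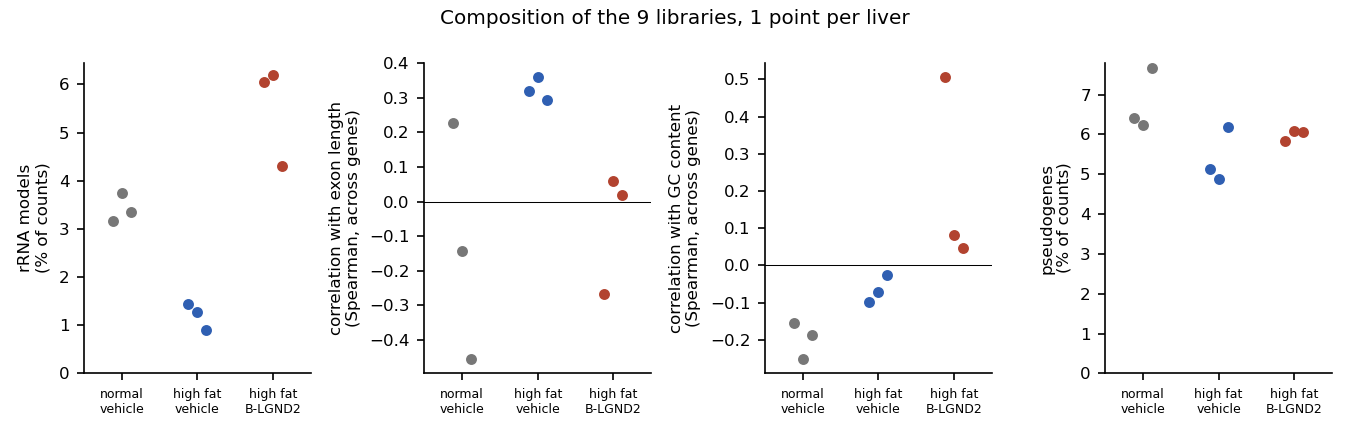
Composition of the 9 libraries, 1 point per liver: the share of counts in ribosomal RNA models and in pseudogenes (%), and the Spearman correlation across genes of each library's deviation from the mean with exon length and with GC content. The B-LGND2 livers lie above the vehicle livers on high fat diet in ribosomal RNA share (4.31% to 6.19% against 0.901% to 1.44%) and below them in the correlation with length.

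Of 12102 genes tested out of 45513 in the table, 681, or 5.63%, differed between B-LGND2 and vehicle livers at an adjusted p under 0.05 (quasi-likelihood test of edgeR, Benjamini-Hochberg adjusted). Higher in the B-LGND2 livers were 371 genes, 3.07% of those tested, and lower were 310, or 2.56%. Genes of macrophages, of the complement C1q complex and of small apolipoproteins were among the higher, and genes of ester and retinoid hydrolysis, drug oxidation, bile acid and phosphatidate metabolism and immediate early transcription among the lower. More than 2-fold changes made up 320 of the higher and 236 of the lower calls, and more than 4-fold changes 64 and 39. For 33.6% of all genes tested the 3 libraries of one group lay wholly above those of the other, and 674 of the 681 called genes were among them. When each of the 9 libraries was left out in turn, 39 of the higher and 27 of the lower genes stayed called every time. The whole count fell to 100 without vehicle replicate 2, 123 without vehicle replicate 1, 134 without B-LGND2 replicate 1 and 184 without vehicle replicate 3. It was 421 without B-LGND2 replicate 3, 473 without normal diet replicate 2 and 691 without B-LGND2 replicate 2. Without normal diet replicates 1 and 3 it rose to 1212 and 1439. Scaling by library size alone moved the median over all genes from -0.003 to -0.178 on the log2 scale and the split of calls to 211 higher and 468 lower.

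**Figure D2:**
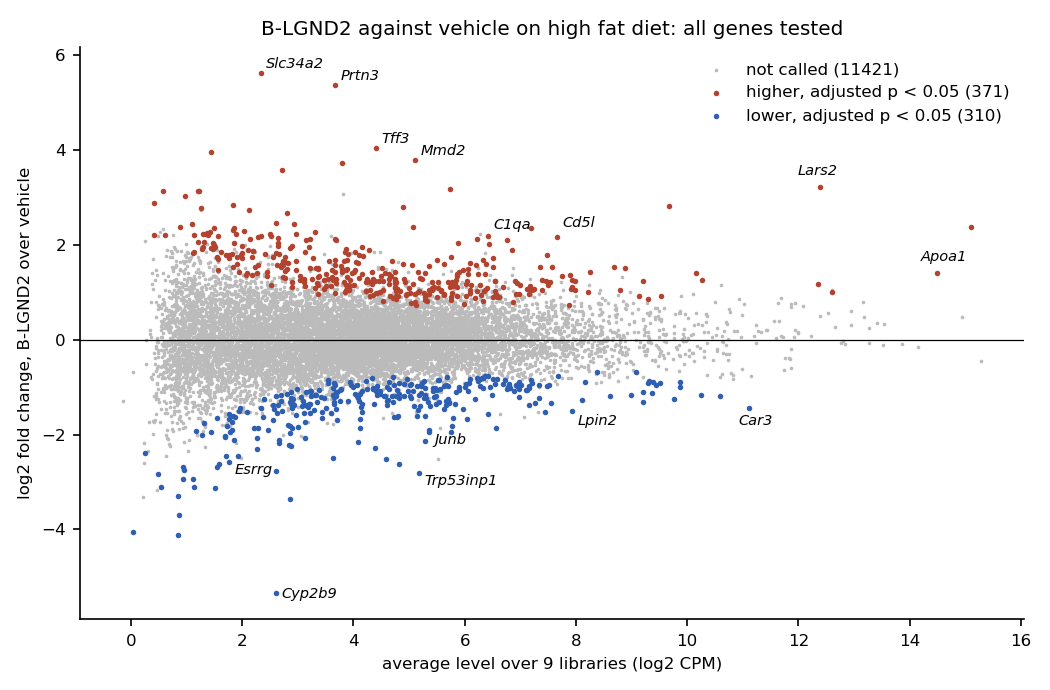
Log2 fold change of B-LGND2 over vehicle (vertical) against the average level over 9 libraries in log2 CPM (horizontal) for the 12102 genes tested, with 371 called higher in red, 310 called lower in blue and the rest in grey. Tff3, Mmd2, Prtn3, Lars2, Cd5l and C1qa lie among the higher genes, and Trp53inp1, Lpin2, Junb, Esrrg and Car3 among the lower.

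Kupffer cell and macrophage genes were higher in the B-LGND2 livers as a list: of 33 markers, 32 were tested, 20 were called higher and 1 lower, with a median log2 fold change of 1.38 against -0.003 for all genes. The marker called lower, at a log2 fold change of -1.21, was the only tested marker below 0, and its call was lost without any 1 high fat library. The summed level of the list was 2018 to 2418 CPM in the B-LGND2 livers, 969 to 1118 CPM in the vehicle livers and 928 to 1287 CPM on normal diet, and no marker of the list was at 0 throughout. In bulk liver, more macrophages and more of these transcripts per macrophage cannot be told apart. Cd5l, which encodes a scavenger protein secreted by tissue macrophages, stood at 87.9, 74.4 and 108 CPM in the vehicle livers and at 346, 385 and 486 CPM in the B-LGND2 livers. Its lowest treated library was above every vehicle and every normal diet library, and the mean was 4.51-fold higher (log2 fold change 2.17 ± 0.25 SE, adjusted p = 0.000189). The genes of the 3 chains of C1q, the recognition part of the classical complement pathway that macrophages make, are neighbours on mouse chromosome 4 and rose together. C1qa (gene span chr4:136895917-136898803, build GRCm38) read 34.8, 33.2 and 43.5 CPM with vehicle and 226, 130 and 152 CPM with B-LGND2. C1qb (chr4:136880129-136886187) read 55.7, 49.5 and 67.9 CPM against 244, 175 and 222 CPM. C1qc (chr4:136889804-136893065) read 44.7, 51.4 and 56.7 CPM against 181, 116 and 206 CPM. None of the 3 genes overlapped between groups, and their log2 fold changes were 2.19 ± 0.27, 1.89 ± 0.26 and 1.72 ± 0.25 (SE), with adjusted p of 0.000504, 0.00139 and 0.00163.

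Other macrophage genes moved by similar amounts. Fcer1g, the gamma chain through which Fc receptors signal, had 4.62, 4.06 and 6.69 CPM with vehicle and 21.4, 20.3 and 24.3 CPM with B-LGND2, a 4.30-fold difference with no overlap (adjusted p = 0.00121). Laptm5, a lysosomal membrane protein of blood cells, rose 2.95-fold and kept its call whichever library was left out, as did Fcer1g, Cd5l, the C1q genes and Marco. Marco, a scavenger receptor, was uneven among treated livers at 6.49, 33.5 and 8.99 CPM, against 0.602 to 1.81 CPM with vehicle. Clec4f, a lectin that marks mouse Kupffer cells, read 59.7, 52.3 and 73.6 CPM with vehicle and 177, 141 and 122 CPM with B-LGND2, 2.37-fold higher. Its call (adjusted p = 0.0161) was lost without vehicle replicate 1, vehicle replicate 2 or B-LGND2 replicate 1, with adjusted p up to 0.0975. Adgre1, which encodes the F4/80 antigen, was 3.04-fold higher and also clear of the vehicle range, and its call was lost without any 1 of the vehicle livers or B-LGND2 replicate 3 (adjusted p up to 0.0975). Over the list, 29 of the 32 genes tested did not overlap between groups in the higher direction, as did 1979 of all 12102 genes tested. The count of 20 became 8 without vehicle replicate 1 or without vehicle replicate 2, and lay between 14 and 24 without any other library. With the ribosomal RNA share in the model, a setting that separates the share poorly from treatment, the count was 0 and the list median 2.22.

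Markers of other leukocytes were sparse. Of 13 recruited monocyte markers 3 passed the filter on low counts and none was called by edgeR (1 was under an unadjusted p of 0.05, and DESeq2's Wald test called 1 higher), with a summed level of 13.5 to 18.8 CPM in treated and 8.27 to 8.78 CPM in vehicle livers and Chil3 listed at 0 in all 9 libraries. Dendritic cell markers (2 of 8 tested) summed to 10.3 to 12.7 CPM with B-LGND2 and 9.73 to 13.5 CPM with vehicle. T and NK cell markers (2 of 13 tested) summed to 8.92 to 14.3 CPM against 7.39 to 7.82 CPM. Neither list had a call by edgeR or DESeq2, with 1 dendritic cell and 0 T and NK cell markers under an unadjusted p of 0.05. B and plasma cell markers (5 of 13 tested) summed to 59.4 to 149 CPM against 38.4 to 53.9 CPM, with 1 call, Dntt, lost without vehicle replicate 1 or B-LGND2 replicate 1 (adjusted p up to 0.0657). Of 16 neutrophil markers 3 were tested and Prtn3 alone was called, while Ly6g, Mpo, Ltf and Ctsg were listed at 0 in every library. Prtn3 encodes a neutrophil serine protease, and its span overlaps that of Plppr3 by a short stretch, so reads of the pair could be mixed where strand was not used. It read 1.15, 0.752 and 0.557 CPM with vehicle and 34.2, 45.9 and 22.1 CPM with B-LGND2. Liver endothelial markers gave 2 of 21 called higher, Kdr and Mrc1, and a median log2 fold change of 0.44. Neither call held without any 1 of the 3 vehicle livers, B-LGND2 replicate 1 or B-LGND2 replicate 3, or with scaling by library size alone. Without normal diet replicate 2, 1 endothelial marker was called. The endothelial markers summed to 593 to 813 CPM with B-LGND2 and 408 to 526 CPM with vehicle. The part of these cell types in the results was not tested.

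Surface receptors of leukocytes were described through families that overlap the macrophage list in part. Of 13 C-type lectins tested, receptors that bind glycans or dying cells, 4 were called higher and none lower, with a median log2 fold change of 0.80. Clec12a, an inhibitory receptor of myeloid cells, read 3.79, 4.51 and 3.21 CPM with vehicle and 15.1, 16.0 and 19.5 CPM with B-LGND2. Its groups were well apart, the difference was 4.39-fold (log2 fold change 2.13 ± 0.30 SE, adjusted p = 0.00153), and normal diet livers read 4.63 to 7.88 CPM. The other lectins called were Clec4f, Clec4a1 and Clec14a, an endothelial lectin, and the count of 4 became 1 without B-LGND2 replicate 1 or vehicle replicate 2, 2 without B-LGND2 replicate 3, vehicle replicate 1 or vehicle replicate 3, and 6 without normal diet replicate 3. Of 58 CD antigens and tetraspanins tested, 9 were called higher and 2 lower, Cd1d1 and Tspan12, with a median of 0.78. Cd300e, an activating receptor of monocytes, rose 5.19-fold and Cd52, a small glycoprotein of leukocytes, 3.53-fold, both from vehicle means under 3 CPM and with no overlap between groups. The 9 became 1 without vehicle replicate 2, 3 without vehicle replicate 1 or B-LGND2 replicate 3, 4 without vehicle replicate 3, 5 without B-LGND2 replicate 1, and 14 and 20 without normal diet replicates 1 and 3. With offsets for length and GC it was 17.

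Antigen presentation on MHC class II moved the same way on a smaller scale, with 3 of 8 genes tested called higher and a median of 1.16. H2-Eb1, a class II beta chain, was 2.47-fold higher, H2-DMb1, a peptide loading chaperone, 4.15-fold and Ifi30, a thiol reductase of endosomes, 2.21-fold (adjusted p 0.0485, 0.0489 and 0.0257). None of the 3 calls held without B-LGND2 replicate 1, B-LGND2 replicate 3, vehicle replicate 2 or vehicle replicate 3, and 1 member was called without vehicle replicate 1 or normal diet replicate 2. The count was also 0 with scaling by library size alone and with offsets for length and GC, at medians of 1.02 and 1.05. MHC class I gave 0 of 21 and the interferon response 1 of 38, Bst2, with medians of 0.35 and 0.27. DESeq2's Wald test called 2 class I genes and 5 interferon genes higher, and 6 and 9 members were under an unadjusted p of 0.05.

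The receptor tyrosine kinase Axl and its ligand Gas6, which bridges dying cells to macrophages, were both higher. Axl read 15.3, 16.1 and 18.3 CPM with vehicle and 41.9, 33.4 and 54.6 CPM with B-LGND2, 2.62-fold higher (log2 fold change 1.38 ± 0.25 SE, adjusted p = 0.00797). Every treated liver was above every vehicle liver and above the normal diet livers at 10.7 to 16.2 CPM, and the call was lost without vehicle replicate 1 or 2 (adjusted p up to 0.0526). Gas6 was 2.11-fold higher (36.6, 24.8 and 21.3 CPM against 48.9, 80.6 and 45.3 CPM, adjusted p = 0.0437), and that call was lost without any 1 of the 6 high fat libraries or normal diet replicate 2 (adjusted p up to 0.171). Mertk, the related receptor of resident macrophages, read 22.2 ± 2.58 CPM with vehicle and 23.8 ± 4.18 CPM with B-LGND2 (SD, n = 3), and its groups overlapped (log2 fold change 0.10 ± 0.23 SE, adjusted p = 0.83).

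Chemokines and inflammatory genes went both ways: of 28 tested, 4 were called higher and 2 lower, with a median of 0.41. Cxcl14, a chemokine that attracts monocytes and dendritic cells, read 1.15, 1.96 and 1.81 CPM with vehicle and 6.26, 9.12 and 8.99 CPM with B-LGND2. It was 4.95-fold higher with no overlap (adjusted p = 0.00445), kept its call without any 1 library, and read 1.32 to 1.72 CPM on normal diet. Cxcl16, a membrane chemokine that also takes up oxidised lipoprotein, was 3.82-fold higher, from 2.26 to 3.90 CPM to 10.4 to 12.98 CPM, and its call was lost without vehicle replicate 1, vehicle replicate 2 or B-LGND2 replicate 1 (adjusted p up to 0.0817). Cxcl1, a neutrophil attractant induced by NF-kB signalling, moved down from 21.4, 8.72 and 11.7 CPM to 1.27, 1.32 and 6.66 CPM, 4.52-fold (adjusted p = 0.0295). B-LGND2 replicate 3 stood nearest to the vehicle livers, and the call was lost without B-LGND2 replicate 1 or 2 or any 1 vehicle liver (adjusted p up to 0.141). Nfkbiz, an inducible nuclear partner of NF-kB, fell 2.63-fold from 8.57 to 11.6 CPM to 3.53 to 4.29 CPM, and Icam1, an adhesion molecule of endothelium and leukocytes, rose 2.42-fold from 8.27 to 14.9 CPM to 25.3 to 35.02 CPM. Nfkbiz lost its call without B-LGND2 replicate 1 or any 1 vehicle liver (adjusted p up to 0.0862), and Icam1 without vehicle replicate 2 (0.0975). The 4 higher calls became 1 without vehicle replicate 2, 2 without vehicle replicate 1 or B-LGND2 replicate 1 and 7 without normal diet replicate 1 or 3.

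Acute phase proteins as a list stayed near the background, with 2 of 30 called higher, 1 lower and a median of 0.12 (-0.04 with scaling by library size alone). Saa3, a serum amyloid A made by macrophages and fat cells as well as hepatocytes, read 2.47, 1.96 and 1.11 CPM with vehicle and 7.76, 6.33 and 11.2 CPM with B-LGND2, a 4.55-fold difference with no overlap (adjusted p = 0.00829). The normal diet livers at 4.37 to 8.44 CPM overlapped the treated range. Cebpb, a transcription factor of the acute phase response, was lower at 55.7, 99.5 and 76.4 CPM against 178, 108 and 157 CPM (adjusted p = 0.0401), and lost its call without any 1 vehicle liver, B-LGND2 replicate 1 or 3 or normal diet replicate 2 (adjusted p up to 0.172).

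**Figure D3:**
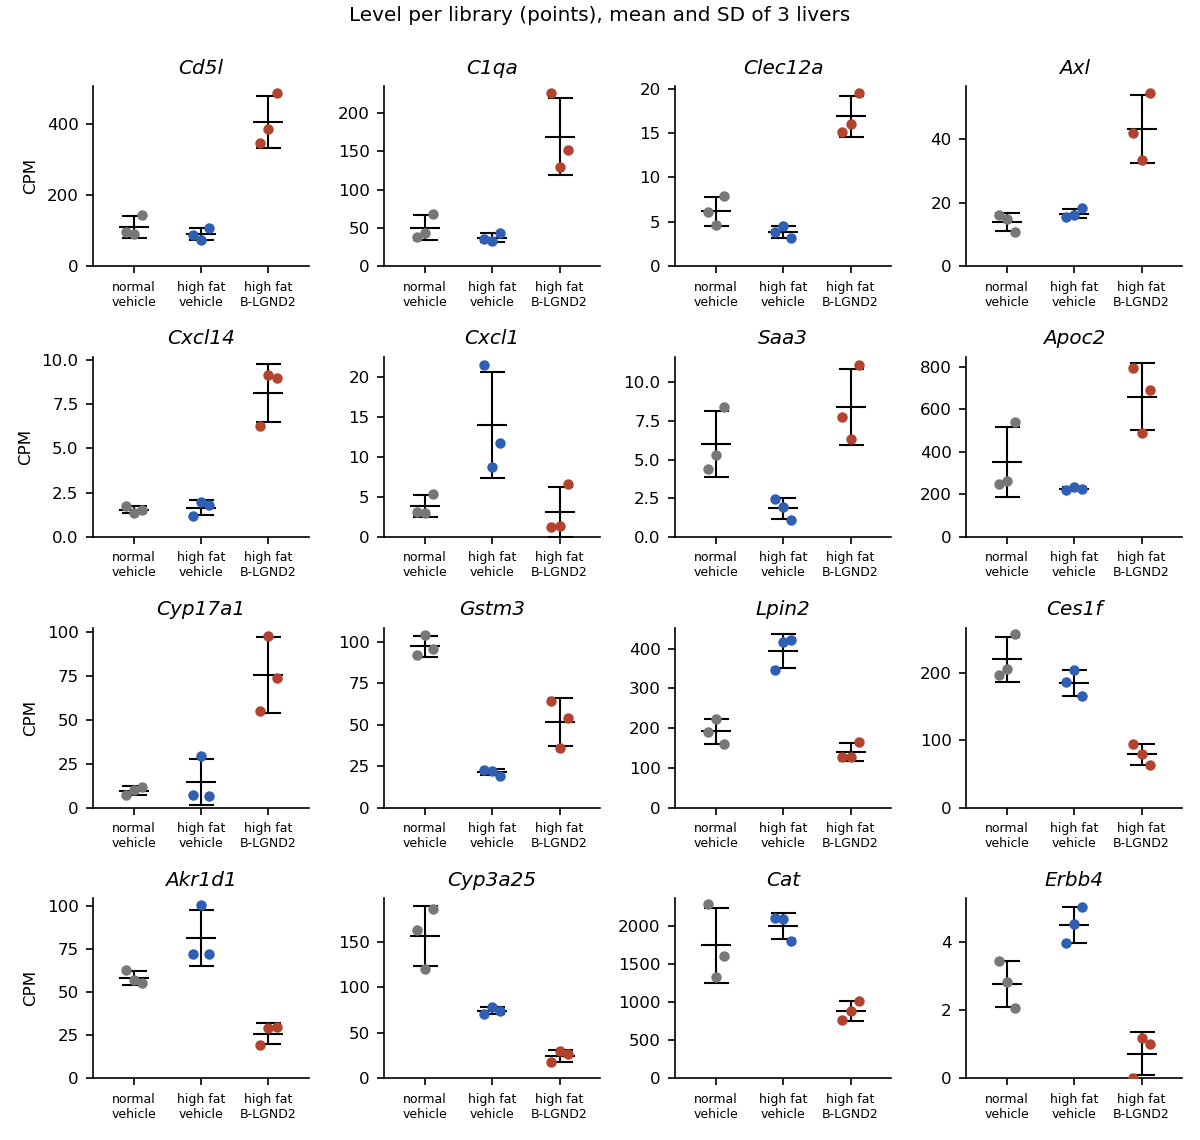
Level in CPM (vertical, linear from 0) of 16 genes in each liver, with points for the 3 libraries each of normal diet vehicle, high fat vehicle and high fat B-LGND2 mice, and black marks for mean and SD. In each panel the B-LGND2 points lie wholly above or wholly below the high fat vehicle points, for example Cd5l at 346 to 486 against 74.4 to 108 CPM.

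Apolipoproteins of triglyceride-rich and high density particles gave 3 higher calls and 0 lower among 28 lipoprotein genes, with a median of 0.19 (0.01 with scaling by library size alone). Apoc2, the activator of lipoprotein lipase, read 221, 236 and 224 CPM with vehicle and 797, 490 and 694 CPM with B-LGND2. It was 2.91-fold higher, without overlap (log2 fold change 1.54 ± 0.29 SE, adjusted p = 0.00829), and the call held without any 1 library. Apoc3, which slows lipoprotein clearance, was 2.26-fold higher at 8437, 4764 and 7240 CPM against 2682 to 3207 CPM (adjusted p = 0.0344). Apoa1, the main protein of high density lipoprotein, read 11792, 12982 and 13719 CPM with vehicle and 58029, 23799 and 20050 CPM with B-LGND2 (2.65-fold, adjusted p = 0.0283). The highest Apoa1 value came from B-LGND2 replicate 1, the library that leaned to GC-rich genes, and its part in the result was not tested beyond leaving it out: Apoa1 lost its call without that library or any 1 vehicle liver (adjusted p up to 0.12), and Apoc3 without B-LGND2 replicate 1 or 3 or any 1 vehicle liver (0.148). With the ribosomal RNA share in the model the log2 fold change of Apoa1 turned to -0.33. That share did not overlap between the high fat groups, so this setting separates it poorly from treatment. Apoe overlapped between groups at 27555 ± 2112 and 38244 ± 14790 CPM (SD, n = 3; adjusted p = 0.301).

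Among the genes that fell were carboxylesterases, of which none was called higher. These enzymes hydrolyse esters of drugs, retinoids and neutral lipids in the endoplasmic reticulum. All 15 listed were tested, 5 were called lower, and the median log2 fold change was -0.61. Ces1f read 186, 204 and 166 CPM with vehicle and 94.1, 79.2 and 63.5 CPM with B-LGND2, and normal diet livers 196 to 257 CPM. The treated livers lay below all 6 others, 2.35-fold under vehicle (log2 fold change -1.23 ± 0.22 SE, adjusted p = 0.00677), whichever library was left out. Ces1d, a lipid droplet associated hydrolase, fell 2.43-fold (380 ± 59.7 to 157 ± 51.5 CPM) and Ces1g 2.26-fold (99.5 ± 9.71 to 44.0 ± 12.03 CPM; SD, n = 3). Both lost their calls without vehicle replicate 2 (adjusted p 0.0622). Ces2c and Ces2e were the other members called, at 2.68-fold and 1.79-fold lower, while Ces3a did not pass at 1168 ± 194 and 1313 ± 126 CPM. The Ces1 genes are close copies in a cluster on chromosome 8, and how the authors' counting assigned reads among them is not given. The count of 5 became 1 without vehicle replicate 2, 3 without vehicle replicate 1, vehicle replicate 3, B-LGND2 replicate 1 or B-LGND2 replicate 2, and 7 without normal diet replicate 1 or 3.

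Cytochrome P450 enzymes of families 1 to 3, which oxidise drugs and steroids, gave 1 higher and 4 lower calls among 31 tested, with a median of -0.57. Cyp3a25 read 70.4, 78.2 and 74.0 CPM with vehicle, 17.7, 30.3 and 27.0 CPM with B-LGND2 and 121 to 186 CPM on normal diet. The 3 groups did not overlap, and treated livers were 2.97-fold below vehicle (log2 fold change -1.57 ± 0.24 SE, adjusted p = 0.00309) whichever library was left out. Cyp2j6, an epoxygenase, fell 1.90-fold (43.7 ± 4.02 to 23.02 ± 2.5 CPM), and Cyp2u1, a fatty acid hydroxylase, rose 2.05-fold (32.7 ± 6.14 to 67.2 ± 13.8 CPM; SD, n = 3). Neither call held without B-LGND2 replicate 1 or 3 or any 1 vehicle liver (adjusted p up to 0.103 and 0.135). Cyp3a genes are near copies of each other, so the assignment of their reads is uncertain. The 4 lower calls became 1 without B-LGND2 replicate 1 and 2 without B-LGND2 replicate 3, vehicle replicate 1 or vehicle replicate 2. They were 9 and 10 without normal diet replicates 1 and 3, 10 by DESeq2's Wald test, 7 with offsets for length and GC, and 10 with scaling by library size alone, where 0 were higher.

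Conjugating enzymes had 5 of 43 called each way and a median of -0.16, and 2 higher and 8 lower with scaling by library size alone. Gstm1, Gstm3 and Gstm7, glutathione transferases of the mu class that detoxify electrophiles, were called higher, and Gstm2, Gstm4, Gstm5 and Gstm6 were not called. Gstm3 read 22.9, 22.3 and 19.2 CPM with vehicle and 64.5, 36.2 and 54.1 CPM with B-LGND2, 2.40-fold higher and without overlap (adjusted p = 0.00864), and the normal diet livers lay above both at 91.9 to 104 CPM. Gstm1 and Gstm7 were 2.38-fold and 2.06-fold higher with their highest values, 2506 and 129 CPM, in B-LGND2 replicate 1, and Gstm genes are near copies in a cluster. Ugt1a1, the glucuronosyltransferase of bilirubin, fell 1.87-fold (176 ± 10.1 to 94.0 ± 9.33 CPM), as did Ugt1a6a (2.03-fold) and Ugt1a6b (1.98-fold), which share exons with it, so the 3 are not independent. Gstm3 lost its call without vehicle replicate 2 or 3 (adjusted p up to 0.0506). The 5 higher calls of the list became 0 without vehicle replicate 2 and 1 without vehicle replicate 1, vehicle replicate 3 or B-LGND2 replicate 1, and each of these 4 omissions left 0 lower calls. Aox1, a molybdenum enzyme that oxidises aldehydes and drugs, fell 3.09-fold from 31.99, 29.03 and 29.97 CPM to 9.27, 10.01 and 10.2 CPM, with no overlap (adjusted p = 0.00494, held without any 1 library).

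Bile acid synthesis gave 0 higher and 2 lower calls among 18 genes, with a median of -0.25, the calls being Akr1d1 and Scp2. Akr1d1, the reductase that sets the ring shape of bile acid and steroid precursors, read 71.9, 100 and 72.2 CPM with vehicle, 19.2, 29.0 and 29.6 CPM with B-LGND2 and 55.5 to 63.0 CPM on normal diet. Treated livers lay below all others, 3.14-fold under vehicle (log2 fold change -1.65 ± 0.24 SE, adjusted p = 0.00163), whichever library was left out. Scp2, the sterol carrier and peroxisomal thiolase, fell 2.29-fold from 575, 620 and 621 CPM to 259, 239 and 295 CPM, and its call was lost without vehicle replicate 2 or B-LGND2 replicate 1 (adjusted p up to 0.0583). Cyp7a1, the rate-limiting enzyme of the pathway, was not called at 136 ± 28.2 against 188 ± 15.9 CPM (SD, n = 3; adjusted p = 0.203). Transporters of bile salts and organic anions gave 0 higher and 3 lower calls among 19. Slco1b2, the main hepatic uptake carrier of organic anions, fell 1.88-fold (from 719 to 920 CPM to 338 to 480 CPM), Abcc3, an exporter of the basolateral side, 2.09-fold, and Abcg2, an exporter of the canalicular side, 2.44-fold. Abcg2 read 33.3, 32.03 and 31.5 CPM against 11.5, 13.98 and 14.2 CPM (adjusted p = 0.00797), and it alone of the 3 stayed called without vehicle replicate 1, 2 or 3 or B-LGND2 replicate 1. The bile salt pump Abcb11 overlapped between groups (267 ± 19.4 and 262 ± 16.5 CPM, adjusted p = 0.945).

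Of the phosphatidate phosphatases of the lipin family, Lpin1 and Lpin2 were called lower. These enzymes make diacylglycerol for triglyceride and phospholipid synthesis. Lpin2, the main lipin of liver, read 345, 417 and 422 CPM with vehicle, 126, 127 and 166 CPM with B-LGND2 and 160 to 224 CPM on normal diet. It was 2.82-fold lower than vehicle with no overlap (log2 fold change -1.50 ± 0.22 SE, adjusted p = 0.00163) and held without any 1 library. Lpin1, the lipin that fasting and glucocorticoids induce, fell 2.16-fold from 839, 1017 and 1155 CPM to 450, 585 and 361 CPM (adjusted p = 0.0288), a call lost without any 1 vehicle liver or B-LGND2 replicate 1 or 3 (adjusted p up to 0.125). Both belong to a list of triglyceride synthesis and lipolysis with 0 higher and 5 lower calls among 19 tested and a median of -0.17, and the 3 Ces1 genes above are the rest of its calls. The 5 became 2 without vehicle replicate 2 and stayed at 4 to 7 without any other library.

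In the lists of fatty acid uptake and breakdown few members were called. Slc27a2, a very long chain acyl-CoA synthetase and fatty acid carrier, fell 1.87-fold (1267 ± 48.5 to 679 ± 101 CPM), and Acsl1, the main long chain acyl-CoA synthetase of liver, 1.88-fold (988 ± 187 to 524 ± 122 CPM; SD, n = 3). Lpl, which releases fatty acids from lipoproteins, and Fabp5, a fatty acid binding protein of macrophages and fat cells, rose 2.44-fold and 4.46-fold from 2.88 ± 0.792 and 1.37 ± 0.656 CPM. None of these 4 calls held without any 1 vehicle liver, B-LGND2 replicate 1 or B-LGND2 replicate 3. Of 30 genes of fatty acid oxidation and ketogenesis, 1 was called higher and 2 lower, with a median of -0.32. Log2 fold changes were below 0 for 24 of the 30. The groups did not overlap in the lower direction for 14, as for 2087 of all 12102 genes tested. The 2 lower calls were Acadvl and Hadhb. Hadhb was lower alone (log2 fold change -1.82) but higher once the counts of its intronless pseudogene copy were added. Its call therefore does not show a lower level of the transcript, as reads could be placed on gene or copy. Acadvl, which opens the breakdown of very long fatty acids in mitochondria, read 83.6, 95.5 and 79.9 CPM with vehicle and 29.8, 38.1 and 33.3 CPM with B-LGND2 (2.56-fold lower, adjusted p = 0.00386, held without any 1 library). Ucp2, a mitochondrial carrier abundant in macrophages, was 2.31-fold higher at 33.2 to 64.4 CPM against 19.4 to 22.9 CPM, a call lost without B-LGND2 replicate 1 or any 1 vehicle liver (adjusted p up to 0.0975). In the peroxisome, 2 of 27 genes, Cat and Scp2, were called lower and 0 higher, with 23 below 0 and a median of -0.30. The count of lower calls was 0 without vehicle replicate 2 and 1 without vehicle replicate 1 or B-LGND2 replicate 1. It rose to 5 without normal diet replicate 1 or 3. Cat, the catalase that removes hydrogen peroxide, read 2099, 2092 and 1796 CPM with vehicle and 759, 876 and 1009 CPM with B-LGND2, 2.26-fold lower without overlap (adjusted p = 0.0133), and lost its call without vehicle replicate 1, vehicle replicate 2 or B-LGND2 replicate 1 (adjusted p up to 0.0688).

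Cholesterol synthesis and uptake gave 0 calls among 25 genes, with 4 members under an unadjusted p of 0.05 and 0 calls by DESeq2, and lipogenesis gave 0 higher and 1 lower among 20, the glucose-responsive factor Mlxipl. Scd1 and Fasn, the desaturase and synthase of new fatty acids, varied widely within the vehicle group (632, 4147 and 1812 CPM for Scd1, and 219, 843 and 736 CPM for Fasn). Over the lipogenesis list the log2 fold changes of B-LGND2 over vehicle ran from -1.34 to 0.91, with a median of 0.26.

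**Figure D4:**
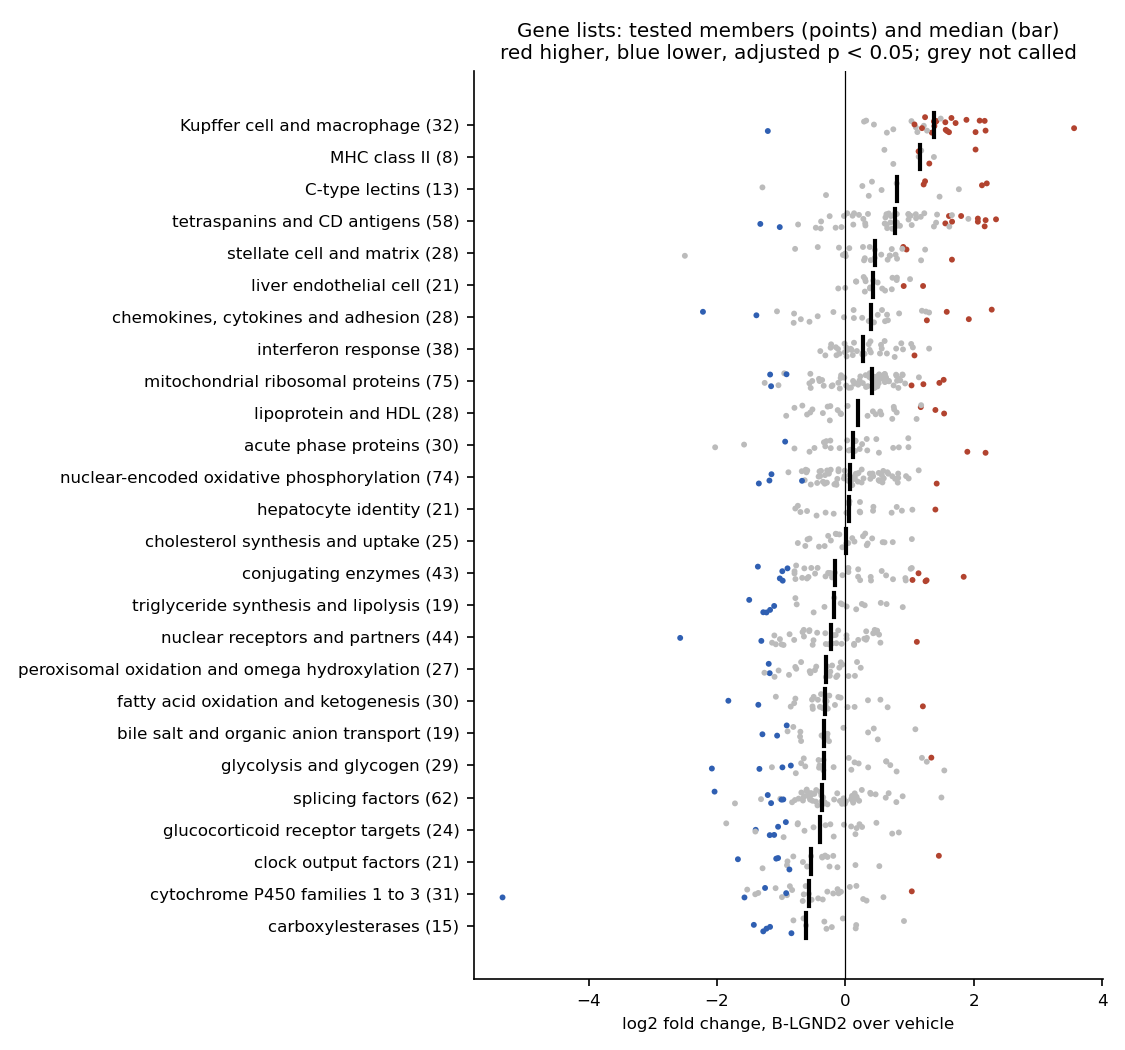
Log2 fold change of B-LGND2 over vehicle for the tested members of 26 gene lists (1 point per gene, red called higher, blue called lower, grey not called), with a bar at the median of each list and the number tested in brackets. Medians run from 1.38 for Kupffer cell and macrophage genes to -0.61 for carboxylesterases, with all genes tested at -0.003.

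The receptor genes were given in every library. Esr2, the gene of the receptor that the series title names, was listed at 0 in all 9 libraries, and Gper1, the membrane estrogen receptor, had 2, 0 and 1 counts in all over the vehicle, B-LGND2 and normal diet groups. Genes that liver is known to express, such as Mat2a, mt-Co2 and mt-Co3, were also listed at 0 in every library, so a 0 in this table can mean that no reads were assigned to the gene, and no limit is drawn from it. Esr1 read 22.9, 16.1 and 11.4 CPM with vehicle, 27.6, 37.2 and 44.5 CPM with B-LGND2 and 23.6 to 28.9 CPM on normal diet. Treated livers were above vehicle livers without overlap, 2.17-fold (adjusted p = 0.0287), a call lost without vehicle replicate 2, vehicle replicate 3 or B-LGND2 replicate 3 (adjusted p up to 0.135). Esrrg, the estrogen-related receptor gamma, which binds no estrogen and acts on mitochondrial and glucose genes, read 6.10, 7.22 and 6.83 CPM with vehicle and 1.27, 0.883 and 1.17 CPM with B-LGND2. It was 6.06-fold lower with no overlap (adjusted p = 0.00506) and held without any 1 library, with normal diet livers at 0.692 to 2.03 CPM. Esrra was not called at 30.2 ± 1.11 and 37.1 ± 8.86 CPM (SD, n = 3; adjusted p = 0.449), and Esrrb, with 14 and 8 counts over the 2 groups, was not tested. Over 44 nuclear receptors and partners the count was 1 higher and 2 lower, the second of these being Ahr, the dioxin receptor, whose call was lost without B-LGND2 replicate 1 or vehicle replicate 1 or 2 (adjusted p up to 0.101).

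Estrogen-responsive and steroid genes gave 4 higher and 1 lower calls among 24, with a median of 0.05 (-0.13 with scaling by library size alone). Cyp17a1, which makes androgen precursors, read 7.42, 29.5 and 6.83 CPM with vehicle and 54.7, 97.5 and 73.8 CPM with B-LGND2, 5.17-fold higher (log2 fold change 2.37 ± 0.46 SE, adjusted p = 0.0143). Vehicle replicate 2 stood apart from its group but below every treated liver, and the call was lost without vehicle replicate 1 (adjusted p 0.05). Hsd17b2, which inactivates estradiol and testosterone, read 133, 119 and 171 CPM with vehicle and 342, 292 and 358 CPM with B-LGND2. It was 2.35-fold higher without overlap (adjusted p = 0.00677, lost without vehicle replicate 2 at 0.0593) and overlapped the normal diet livers at 245 to 339 CPM. Hsd17b13, a lipid droplet member of the same enzyme family, fell 1.93-fold from 144 ± 13.5 to 74.5 ± 18.7 CPM (SD, n = 3), a call lost without B-LGND2 replicate 1 or 3 or any 1 vehicle liver (adjusted p up to 0.117). The 4 higher calls became 2 without vehicle replicate 1 or 2. Tff3, a mucosal repair peptide also counted as a bile duct marker, was among the genes with the smallest p. It read 2.47, 3.16 and 4.32 CPM with vehicle and 44.6, 47.8 and 73.6 CPM with B-LGND2, 16.7-fold higher. The other cholangiocyte markers called were Spp1 and Slc34a2 of 8 tested, both lost without any 1 vehicle liver. Of the 8, 6 had a log2 fold change above 0 and 2 below, down to -0.92, with a median of 0.45. The list summed to 159 to 171 CPM with B-LGND2 and 63.7 to 101 CPM with vehicle, a sum that includes Tff3.

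Glucocorticoid receptor targets gave 0 higher and 5 lower calls among 24, with a median of -0.40, and immediate early genes 0 higher and 5 lower among 28, with a median of -0.17. Zbtb16, a zinc finger repressor, read 76.2, 87.4 and 71.9 CPM with vehicle, 36.1, 28.4 and 24.6 CPM with B-LGND2 and 11.5 to 21.3 CPM on normal diet. Its treated livers lay between both vehicle groups without overlap (2.64-fold below high fat vehicle, adjusted p = 0.00829). Klf9 fell 2.07-fold and Tsc22d3, the leucine zipper mediator of glucocorticoid action, 1.90-fold, and Lpin1 and Per1 were the other calls. Junb, an AP-1 subunit, read 99.8, 65.7 and 62.2 CPM with vehicle and 25.9, 21.5 and 11.2 CPM with B-LGND2, 3.88-fold lower (adjusted p = 0.00309, held without any 1 library). Btg2, Zfp36, Maff and Egr1 were the other early genes called, between 1.96-fold and 5.83-fold lower. The 5 glucocorticoid targets became 1 without vehicle replicate 1 or 2, 2 without B-LGND2 replicate 1 and 3 without B-LGND2 replicate 3 or vehicle replicate 3. The 5 early genes became 1 without vehicle replicate 1 or 3, 2 without vehicle replicate 2, B-LGND2 replicate 1 or B-LGND2 replicate 3, and 3 without B-LGND2 replicate 2 or normal diet replicate 2. Zbtb16 lost its call without vehicle replicate 2 (adjusted p 0.0513).

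Clock genes were lower in part. Of 16 core loop genes 2 were lower, Per1 and Ciart, and of 21 output factors 4 were lower and 1 higher, with medians of -0.38 and -0.53. Rgs16, a regulator of G protein signalling that cycles with feeding, read 137, 119 and 134 CPM with vehicle and 21.4, 70.9 and 29.8 CPM with B-LGND2, 3.19-fold lower without overlap (adjusted p = 0.0126, lost without B-LGND2 replicate 1 at 0.0591). Alas1, the first enzyme of haem synthesis, fell 1.83-fold, and Tfrc, the transferrin receptor, rose 2.77-fold, a call lost without B-LGND2 replicate 3 or any 1 vehicle liver (adjusted p up to 0.0824). Dbp, the best known output factor, did not pass at 49.1 ± 7.02 against 26.3 ± 13.1 CPM (SD, n = 3; adjusted p = 0.0972). The 2 core calls became 0 without vehicle replicate 1, 1 without vehicle replicate 2 or 3, B-LGND2 replicate 1 or 2 or normal diet replicate 2, 3 without B-LGND2 replicate 3 or normal diet replicate 1 and 4 without normal diet replicate 3. The 4 lower output calls were 7 with offsets for length and GC and became 0 without B-LGND2 replicate 1, 1 without vehicle replicate 1 or 2 and 2 without vehicle replicate 3 or normal diet replicate 2.

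Among genes of glycogen and glucose handling, 1 of 29 was higher and 4 lower, with a median of -0.34. Ppp1r3c, a glycogen targeting subunit of protein phosphatase 1, read 64.7, 119 and 70.7 CPM with vehicle and 31.8, 36.6 and 32.0 CPM with B-LGND2, 2.53-fold lower (adjusted p = 0.0157). Gys2, the liver glycogen synthase, fell 1.97-fold and Ugp2, which makes its substrate UDP-glucose, 1.80-fold, both with no overlap. Pkm, the pyruvate kinase of non-hepatocyte cells, was 2.53-fold higher, a call lost without B-LGND2 replicate 1 or 2, any 1 vehicle liver or normal diet replicate 2 (adjusted p up to 0.187), with scaling by library size alone and with offsets for length and GC. The 4 lower calls, of which Gapdh is the last, became 0 without vehicle replicate 2 or B-LGND2 replicate 1, 1 without vehicle replicate 1 or 3 and 2 without B-LGND2 replicate 2 or normal diet replicate 2. Foxo3, a transcription factor that insulin keeps out of the nucleus, was the 1 call among 25 genes of gluconeogenesis and insulin response. It read 106, 109 and 130 CPM with vehicle and 47.7, 46.8 and 51.6 CPM with B-LGND2, 2.36-fold lower (adjusted p = 0.0103, lost without B-LGND2 replicate 1 at 0.0546).

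Among growth factor receptors, the neuregulin receptors Erbb3 and Erbb4 were lower. Erbb3 read 141, 136 and 101 CPM with vehicle and 64.3, 58.7 and 65.3 CPM with B-LGND2, 2.01-fold lower (adjusted p = 0.0245). Erbb4 read 3.96, 4.51 and 5.02 CPM against 0, 1.18 and 0.999 CPM (log2 fold change -2.69 ± 0.63 SE, adjusted p = 0.0238). Neither pair of groups overlapped, and both calls were lost without B-LGND2 replicate 1, vehicle replicate 1 or vehicle replicate 2 (adjusted p up to 0.114 and 0.0877). The list of 25 held 3 higher calls, Axl, Gas6 and Kdr, beside these 2.

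In sulphur amino acid metabolism 1 of 24 genes was higher and 1 lower. Csad, the decarboxylase that leads cysteine to taurine, read 24.7, 41.1 and 36.2 CPM with vehicle, 110, 70.5 and 116 CPM with B-LGND2 and 132 to 152 CPM on normal diet. It was 2.9-fold higher than vehicle without overlap (adjusted p = 0.00386, held without any 1 library). Cth, the lyase that makes cysteine, fell 2.12-fold from 125 ± 35.9 to 58.8 ± 7.44 CPM (SD, n = 3; adjusted p = 0.0203, lost without B-LGND2 replicate 1 or 3 or vehicle replicate 1 or 2).

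Further single genes held their calls without any 1 library. Car3, a carbonic anhydrase abundant in male liver, muscle and fat, read 2707, 2669 and 2797 CPM with vehicle and 1112, 733 and 1152 CPM with B-LGND2, 2.73-fold lower (adjusted p = 0.00364). Trp53inp1, a p53-induced protein of autophagy and stress, fell 7.00-fold from 127, 48.4 and 47.7 CPM to 7.76, 9.42 and 14.7 CPM. Bach1, a repressor of haem oxygenase, fell 3.74-fold (65.6 ± 9.94 to 17.5 ± 5.64 CPM), and Pim3, a serine kinase, 2.6-fold (218 ± 25.6 to 83.7 ± 7.70 CPM; SD, n = 3). Mmd2, a membrane protein related to adiponectin receptors, rose 13.9-fold from 4.12, 6.17 and 8.36 CPM to 70.2, 103 and 86.8 CPM. Isyna1, the synthase that makes inositol from glucose 6-phosphate, rose 6.94-fold from 13.5, 9.62 and 5.85 CPM to 46.6, 99.0 and 55.8 CPM. None of these 6 genes overlapped between groups. Lars2, named for a mitochondrial leucyl-tRNA synthetase, was 9.29-fold higher (850 ± 357 to 7896 ± 870 CPM), and its 3 group means had the order of the ribosomal RNA shares, with 7196 ± 1830 CPM on normal diet.

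RNA processing genes leaned lower. Of 62 splicing factors, 0 were called higher and 5 lower, and 25 lay apart in the lower direction, with a median of -0.36. Of all 12102 genes tested, 2087 lay apart in that direction. Srsf5 fell 2.23-fold (55.3 ± 8.03 to 24.9 ± 6.13 CPM), Hnrnph1 2.31-fold and Prpf8, the core of the spliceosome, 1.99-fold. With offsets for length and GC the median moved to -0.16, and with the ribosomal RNA share in the model to 0.03. The latter setting separates the share poorly from treatment. The 5 calls became 0 without any 1 vehicle liver, B-LGND2 replicate 1 or B-LGND2 replicate 3. Among coding genes as a whole, the median exon length was 2537.5 bases for those called higher, 4806 for those called lower and 4498.5 for all, and the median GC content 53.6%, 47.5% and 49.8%. Hepatocyte identity genes held 1 call, Apoa1, of 21 with a median of 0.06 (-0.11 with scaling by library size alone), and summed to 91600 to 142200 CPM with B-LGND2 and 90020 to 98300 CPM with vehicle.

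Processed pseudogenes, intronless copies of messenger RNAs, bear on how single genes were read. Of 805 tested, 53 were called higher and 7 lower, and 501 matched a coding gene at 95% identity or more over at least 70% of their length. Among the 53, 46 had such a gene; it was itself called higher in 5 cases, lower in 0 and not called in 41. Reads could be placed on the gene or on a copy, so the counts of gene and copies were added for the 23 called genes that have a tested copy, a sum chosen after the data were seen. The groups overlapped after this sum in 5 of the 23. Hadhb, a subunit of the mitochondrial trifunctional protein of fatty acid oxidation, was called lower alone, from 4.04 ± 0.519 to 1.15 ± 0.204 CPM, but gene and copy together stood at 239.8, 240.2 and 239.1 CPM with vehicle and 386.1, 262.5 and 299.4 CPM with B-LGND2. Ndufs3, a subunit of respiratory complex I, was called lower with a log2 fold change of -1.35, but with its copy stood at 170.6 ± 9.606 and 248.6 ± 33.96 CPM (SD, n = 3). Rps14, a ribosomal protein, was likewise lower alone (-1.23) and higher with its copies, at 106 ± 3.94 against 212 ± 29.7 CPM. Gapdh remained lower with its tested and matched copies, from 19.2 ± 1.19 to 7.48 ± 2.23 CPM. Reads placed on other copies, or not assigned, are outside these sums. The direction of Hadhb, Ndufs3 and Rps14 thus turned when the copies were added.

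**Figure D5:**
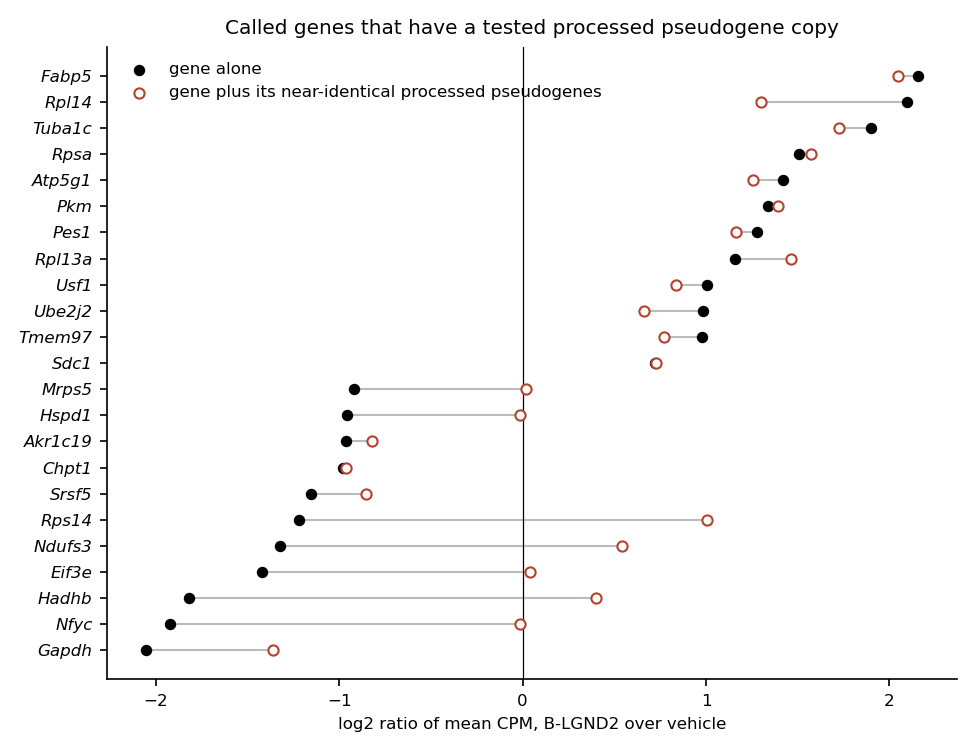
Log2 ratio of mean CPM, B-LGND2 over vehicle, for the 23 called genes with a tested processed pseudogene copy: the gene alone (black) and gene plus copies (open red), joined by a grey line. Hadhb, Ndufs3 and Rps14 lie below 0 alone and above 0 with their copies, while Gapdh stays below 0.

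The stretches of 250 bases before the start of called genes were searched for the motifs of factors named above, in RefSeq promoters of build GRCm38.p6. Windows were found for 247 of the 371 higher and 231 of the 310 lower genes (303 and 296 windows, some genes having several starts) and for 8823 of all genes tested (11316 windows), and each motif was sought on both strands. The full estrogen response element GGTCANNNTGACC was in 0 windows of higher, of lower and of all genes, which says only that these letters are not in this stretch. The core AGGTCA, which nuclear receptors share and which is contained in that element but for its first base, was in 12.2% of windows of higher genes, 14.9% of lower and 11.4% of all. The cyclic AMP element TGACGTCA was in 0.33%, 4.39% and 2.47%, that is 1, 13 and 279 windows. The D-box TTATGNAA, the site of clock output factors, was in 2.31%, 3.72% and 2.01%, the E-box CACGTG in 9.24%, 9.12% and 8.43%, and the AP-1 site TGACTCA in 4.29%, 3.04% and 3.33%. The glucocorticoid element GNACANNNTGTNC was in 0.33%, 0.676% and 0.265%. These shares are descriptions, and a match is not a bound site.

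Promoter sequences are shown for 2 genes of the C1q cluster, which rose together, and for Akr1d1 and Cyp3a25, which fell in every omission of a library. Each is 250 bases, 5′ to 3′ on the gene's own strand, ending at the base before the RefSeq start, with any motif listed above in capitals. C1qb (chr4:136886201-136886450, minus strand) held none of them. C1qc (chr4:136892915-136893164, minus strand) held 1 AGGTCA core on the opposite strand, read here as TGACCT. Akr1d1 (chr6:37529923-37530172, plus strand) held 2 such cores and a D-box in its last 8 bases. Cyp3a25 (chr5:146009618-146009867, minus strand) held 1 core in each orientation.
C1qb: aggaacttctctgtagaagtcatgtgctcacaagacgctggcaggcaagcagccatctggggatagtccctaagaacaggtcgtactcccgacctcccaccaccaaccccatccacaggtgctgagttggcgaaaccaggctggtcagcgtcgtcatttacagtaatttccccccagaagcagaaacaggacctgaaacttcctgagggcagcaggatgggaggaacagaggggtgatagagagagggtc
C1qc: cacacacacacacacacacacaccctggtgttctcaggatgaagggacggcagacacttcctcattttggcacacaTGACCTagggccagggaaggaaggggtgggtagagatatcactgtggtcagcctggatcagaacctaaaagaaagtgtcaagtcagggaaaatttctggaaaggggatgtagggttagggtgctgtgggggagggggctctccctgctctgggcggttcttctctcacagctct
Akr1d1: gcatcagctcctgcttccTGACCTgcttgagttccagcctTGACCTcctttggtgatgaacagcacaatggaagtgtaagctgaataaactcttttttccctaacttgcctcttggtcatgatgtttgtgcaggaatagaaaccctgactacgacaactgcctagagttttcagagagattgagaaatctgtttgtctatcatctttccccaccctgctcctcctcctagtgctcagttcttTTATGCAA
Cyp3a25: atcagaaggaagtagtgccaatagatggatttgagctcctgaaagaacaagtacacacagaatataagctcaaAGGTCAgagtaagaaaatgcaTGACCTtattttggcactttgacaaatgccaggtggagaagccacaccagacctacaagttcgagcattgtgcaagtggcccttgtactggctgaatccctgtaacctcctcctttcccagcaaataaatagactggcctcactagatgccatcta
Of the promoters shown, that of C1qc, which rose, and those of Akr1d1 and Cyp3a25, which fell, hold the core, and that of C1qb, which rose, does not. These promoters were picked for display, and a relation of the core to direction was not tested.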

How the data were processed

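Poly(A)-enriched liver RNA was sequenced on an Ion Torrent Proton, per the labels' protocols. The authors deposited 1 table of raw read counts per gene, without normalization. Per the submitters' processing notes, they used HTSeq 0.6.1p1, TopHat2 2.0.13 and DESeq2 1.6.3 on GRCm38.p3, with Bowtie2 2.2.4 and SAMtools 0.1.19. The sources used here give no annotation release, strand setting or read assignment mode, so how reads of overlapping genes were counted is not known. Symbols and coordinates came from GENCODE M21 on GRCm38, matching 44671 IDs and leaving 842 without a symbol.

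Genes were filtered with filterByExpr (minimum count 10) and scaled by TMM. One robust quasi-likelihood model in edgeR 4.0.16 (R 4.3.3) was fitted to all 9 libraries with a term for group, leaving 6 residual degrees of freedom, and its two-sided contrast of B-LGND2 against vehicle was Benjamini-Hochberg adjusted over all genes at 0.05. SEs were computed from the F statistics. Alternatives included DESeq2 1.42.0, voom of limma 3.58.1, other scalings and filters, length and GC offsets, a ribosomal RNA term and leaving out each library. The genes named were, by rule, the 15 higher and 15 lower with the smallest p and the 12 of each with the highest level (called, not overlapping between groups, average log2 CPM 1 or more), leaving out predicted genes and pseudogenes, up to 5 members with the smallest p of each list, and the receptor genes; others were named after their values were seen. Of 81 lists, those on which a result rests are described. The members and lists were chosen with earlier results of these data known. Values of some list members are not reported here.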

Additional observations from a re-analysis of the deposited data

How the results depend on the processing

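The 681 calls (371 higher, 310 lower) depended on the setting. Scaling by library size alone gave 211 higher and 468 lower. No filter on low counts gave 1345 (751 and 594), DESeq2's Wald test 1123 (621 and 502), and a fit of only the 6 high fat libraries 1420 (849 and 571). With the share of ribosomal RNA in the model, a share that does not overlap between the groups, 2 genes were called, 2 higher and 0 lower, with 725 at an unadjusted p under 0.05. In that setting the log2 fold changes of Apoa1, Fam221b and Mug1 turned to -0.33, -0.97 and 0.028. The cause of these shifts was not tested. Leaving out 1 library gave 100 to 1439 calls, 51 to 803 higher and 40 to 636 lower. DESeq2 size factors, a minimum of 50 counts in 3 libraries, voom, dispersions without the robust option, length and GC offsets and the removal of ribosomal RNA, mitochondrial genes and Lars2 stayed within 1.5 times of the counts. The genes were not all the same: of the 681 calls, DESeq2 size factors kept 659, length and GC offsets 560 and the minimum of 50 counts 523. The replicate numbers are not described as pairs, and the correlations of same-numbered libraries' deviations ran from -0.193 to 0.124; a replicate block gave 492 calls (273 and 219). Under the filter of 50 counts the lists of recruited monocytes, adipocytes and small nucleolar RNAs, and without mitochondrial genes the mitochondrial lists, had no member left. Of the 54 called genes named for their p, their level or as receptors, 32 kept their call without each library. Counts limit the genes under about 1 CPM, where a library holds few reads.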
